A study of Mus musculus with 23 samples.

Results

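E14.5 control thymic epithelial cells (TECs) sorted as PLET1+ were compared with those sorted as PLET1- from the same study arm, to describe how the RNA of the 2 sorted populations differed. The 6 libraries, 3 of PLET1+ cells and 3 of PLET1- cells, were all those whose titles name an E14.5 control of the *Rbpj* cross, out of 23 in the series. Each holds 100 cells of dissociated mouse thymus, positive for EPCAM and sorted directly into lysis buffer, and was made by Smart-seq2, a full-length method for few cells that does not mark strand or count molecules. The labels give strain C57BL/6, genotype wild type and no treatment. By the study's methods the embryos came from crossing *Foxn1Cre;Rbpj* FL/+ with *Rbpj* FL/FL mice, so each control embryo had at least 1 floxed *Rbpj* allele, and which of them carried *Foxn1Cre*, a Cre active in TECs, is not given in the sources used here. Replicates 1 and 2 of both populations bear the batch label 3 and replicate 3 the batch label 4, and the study describes 2 litters taken on 2 days. The 6 E14.5 *Rbpj* cKO libraries (*Foxn1Cre* with *Rbpj* FL/FL, 3 PLET1+ and 3 PLET1-, same batches) and the 3 E12.5 PLET1+ control libraries (batches 1 and 2) are used below for values side by side. The series also holds 3 libraries of E12.5 PLET1+ *Rbpj* cKO cells. Another 5 are of E14.5 PLET1+ cells in which *Foxn1Cre* turns on the Notch intracellular domain (NICD, batch label 5). The study sorted the NICD cells at another site. Both groups enter the shared statistical model only.

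The thymic epithelium arises from the third pharyngeal pouch, and PLET1, a surface protein, is used to enrich its early progenitors in the fetus. TECs mature toward 2 fates. Cortical TECs (cTECs) support early T-cell development and positive selection under the transcription factor FOXN1, whereas medullary TECs (mTECs) carry basal keratins and later display tissue antigens under AIRE. Early mTEC progenitors have tight-junction claudins on their surface, and Notch signalling through RBPJ acts in this lineage.

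The sort was visible in the RNA. *Plet1* (chr9:50494525-50505482, GRCm38) was at 17.9, 24 and 23.1 CPM (gene counts relative to the TMM-corrected total of their library) in PLET1+ replicates 1, 2 and 3, against 0, 6.3 and 3.76 CPM in the PLET1- replicates. The populations did not overlap, the difference of mean log2 (CPM + 1) was 2.79, and the exact two-sided permutation test gave p = 0.1, the smallest that 3 against 3 libraries allow. Below, where 3 values stand against 3, the first are those of PLET1+ replicates 1, 2 and 3 and the others those of PLET1- replicates 1, 2 and 3. *Epcam*, the epithelial adhesion molecule used in the sort, was at 692, 852 and 946 CPM in PLET1+ and 584, 615 and 583 CPM in PLET1- libraries. Every PLET1+ library lay above every PLET1- library for *Epcam* as well (log2 fold change 0.48 ± 0.21 SE, PLET1+ over PLET1-). *Foxn1*, the regulator that defines TECs, was present in all 6 libraries, at 84.7, 206 and 142 CPM in PLET1+ and 97.5, 275 and 295 CPM in PLET1- cells. It was lower in PLET1+ in 3 of 3 same-numbered pairs, but the populations overlapped (log2 difference -0.55, exact permutation p = 0.5).

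Total counts in the 6 libraries were 24819791 to 48312976, and 16546 to 20350 genes had a count. Replicate 1 of both populations stood apart, with 9.54% and 7.8% of counts from mitochondrial genes against 4.29% to 5.32% in the other 4, and with the lowest numbers of genes detected. Over the 19140 genes tested, log2 (CPM + 1) correlated at 0.930 to 0.969 between PLET1+ libraries, 0.924 to 0.947 between PLET1- libraries and 0.927 to 0.956 between PLET1+ and PLET1- libraries of the same number. These ranges overlap, so the libraries did not group by population. Of the sum of squares over these genes, 21.5% lay between populations, 49.1% between replicate numbers and 29.3% in the rest. A single contrast among 6 libraries takes a similar share when populations do not differ, so the population share alone shows no difference.

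Mesenchymal markers separated 2 of the PLET1- libraries from the rest, and parathyroid markers were high in these and in PLET1+ replicate 2. The 12 mesenchymal markers summed to 541, 1515 and 24.3 CPM in PLET1- replicates 1, 2 and 3 and to 47.4, 42.9 and 22.8 CPM in PLET1+ replicates. *Col3a1*, a fibrillar collagen of fibroblasts, was at 0, 0.272 and 0 CPM in PLET1+ and 108, 165 and 0.114 CPM in PLET1- cells, and *Dcn*, the matrix proteoglycan decorin, at 5.93, 8.65 and 0 CPM in PLET1+ and 136, 673 and 0.703 CPM in PLET1- cells. PLET1- replicates 1 and 2 thus carried the mesenchymal transcripts, and replicate 3 was at the level of the PLET1+ libraries. All 12 members were tested, 12 had a negative fold change, 6 had an unadjusted p under 0.05 and none passed after adjustment (edgeR, median log2 fold change -5.99, or -5.30 with members at 0 counts in a population set to their bound). The 9 parathyroid and neuroendocrine markers summed to 1626, 959.5 and 16.2 CPM in PLET1- and 23.7, 433 and 19.5 CPM in PLET1+ libraries. In the libraries with high sums, most of this was *Pth*, parathyroid hormone, at 0.182, 377 and 0.214 CPM in PLET1+ and 1432, 864 and 1.06 CPM in PLET1- cells, with the granule protein *Chga* at 0.0364, 11.7 and 0 against 111, 34 and 0.133 CPM. The parathyroid arises from the same pouch as the thymus. *Syp*, a synaptic vesicle protein, was at 0, 0.218 and 0 against 0, 1.96 and 0 CPM. Of the 7 parathyroid and neuroendocrine members tested, 7 had a negative fold change and none passed, with a median of -1.59.

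Blood and vessel markers were low in both populations. The 15 thymocyte and haematopoietic markers summed to 38.9, 20.8 and 16.4 CPM in PLET1- and 21.4, 18.1 and 25.2 CPM in PLET1+ libraries, and most of this was *Lck* (21.4, 15.5 and 22.4 CPM in PLET1+ and 25.7, 14.8 and 13.5 CPM in PLET1-). The pan-leukocyte gene *Ptprc* had 0 counts in all 6 libraries, and the T-cell receptor component *Cd3e* was at 0, 0 and 0 against 0, 0 and 0.057 CPM. The 8 endothelial markers summed to at most 10.1 CPM and the 9 erythroid markers to at most 1.96 CPM in any of the 6 libraries. The part of the mesenchymal and parathyroid transcripts in the differences described below was not tested, so values without PLET1- replicates 1 and 2 are given where they matter. That fit keeps PLET1+ replicate 2, at 433 CPM of parathyroid and neuroendocrine markers.

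**Figure D1:**
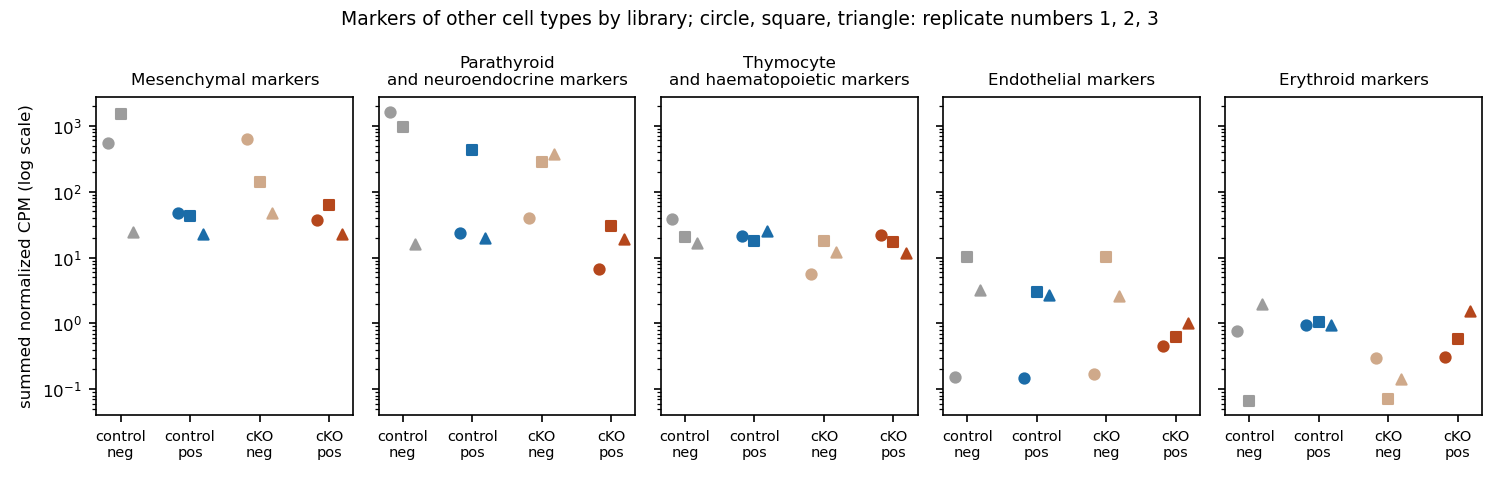
Summed normalized CPM (log scale) of 5 marker lists in each E14.5 control and *Rbpj* cKO library, PLET1-negative (neg) and PLET1+ (pos). Mesenchymal markers reach 541 and 1515 CPM in control PLET1- replicates 1 and 2, against 22.8 to 47.4 CPM in control PLET1+ libraries.

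Across the genome, no single gene passed. In edgeR's quasi-likelihood test of all 23 libraries, with batch terms and Benjamini-Hochberg adjustment, 0 of 19140 genes (0%) had an adjusted p of at most 0.05 between PLET1+ and PLET1- controls, and every adjusted p was 1. At an unadjusted p under 0.05 there were 550 genes (2.87%), 326 higher (1.7%) and 224 lower (1.17%) in PLET1+. DESeq2 called 172 genes (0.899%), 104 higher (0.543%) and 68 lower (0.355%), or 103 with the replicate number as a block, 80 higher and 23 lower, and limma-voom, which the study used, called 1 (0.00522%), *Muc15* (chosen after its values were seen), a membrane mucin at 4.95, 8.85 and 9.14 CPM in PLET1+ and at 0 counts in all PLET1- libraries. Many of the 98 genes chosen for naming were picked by small edgeR p in these same libraries. How many of them DESeq2 called is therefore no separate support. DESeq2 called 14 of the 98, among them *Krt5* (adjusted p = 0.00338), *Gstm1*, *Gstm2*, *Cd24a*, *Dsg3*, *Bpifa1*, *Krtdap* and the mesenchymal collagens *Col1a1* and *Col3a1*, and no cortical gene. In the absence of edgeR calls, gene groups are described by how many members lay wholly above or below in PLET1+, meaning that all 3 PLET1+ libraries lay beyond all 3 PLET1- libraries, by however narrow a gap. Of all genes tested, 963 (5.03%) were higher and 891 (4.66%) lower in this sense, or 9.69% in either direction. In same-numbered pairs, 2761 genes (14.4%) were higher in PLET1+ in 3 of 3 and 2487 (13%) lower in 3 of 3. The log2 fold change was above 0 for 51.2% and below 0 for 48.7% of all genes, with a median of 0.02. In these sorted bulk samples, fewer cells of a type and less RNA per cell cannot be told apart.

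Genes of the cortical programme lay lower in PLET1+ libraries as a group, although no member passed the test. Of 17 cTEC and FOXN1-dependent genes, all tested, 16 had a negative fold change, 7 were wholly lower in PLET1+ and 0 wholly higher, beside 4.66% and 5.03% of all genes. In same-numbered pairs, 14 of the 17 were lower in PLET1+ in 3 of 3, beside 13% of all genes. An unadjusted p under 0.05 was found for 3 of them, beside 2.87% of all genes. The median log2 fold change was -0.63. *Psmb11* (chr14:54625310-54629556), the β5t subunit of the thymoproteasome of the thymic cortex, was at 404, 490.4 and 386 CPM in PLET1+ and 719, 911 and 914 CPM in PLET1- replicates 1, 2 and 3. The mean was 1.99 times as high in PLET1- cells (log2 fold change -0.98 ± 0.39 SE, unadjusted p = 0.0222 in edgeR). *Ly75* (chr2:60292103-60383303), which encodes the cTEC surface receptor CD205, was at 138, 98.7 and 138 CPM against 251, 211 and 272 CPM. Its mean was 1.96 times as high in PLET1- cells (log2 fold change -0.97 ± 0.35 SE, unadjusted p = 0.0122). For both genes the highest PLET1+ library stayed below the lowest PLET1- library.

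*Krt8* and *Krt18*, the keratin pair of simple epithelium that cTECs retain, followed the same order. *Krt18* (chr15:102028216-102032026) was at 3766, 2834 and 2594 CPM in PLET1+ and 4810.0, 4707 and 4663 CPM in PLET1- libraries (log2 fold change -0.63 ± 0.24 SE, unadjusted p = 0.0171). Its partner *Krt8* was at 2028, 2567 and 2469 against 2990.2, 3878 and 4308 CPM. The other genes that were wholly lower were *Ctsl*, the cathepsin that trims class II ligands in the cortex (3197, 2948 and 3056 CPM against 4434, 3787 and 4358 CPM), *Cd83* (192, 156 and 183 against 301, 375 and 430.3 CPM) and *Cd274*, the checkpoint ligand PD-L1 (309.5, 395 and 213 against 502, 485 and 615 CPM). Secreted factors were lower in each pair but overlapped. The chemokine *Ccl25*, which draws progenitors into the thymus, was at 3409, 1117 and 1165 CPM in PLET1+ and 5406, 2907 and 3250.1 CPM in PLET1- replicates 1, 2 and 3, and *Il7*, the thymocyte survival cytokine, at 1574, 1199.7 and 1248 against 2047, 1409 and 1944 CPM. *Tbata* was at 424, 144 and 61.7 against 579, 560.4 and 275 CPM (log2 fold change -1.33 ± 0.64 SE). *Dll4*, the Notch ligand that cTECs present to T-cell progenitors, differed less, at 19.2, 28.7 and 21.2 CPM in PLET1+ and 22.8, 26.8 and 36.9 CPM in PLET1- cells (log2 fold change -0.27 ± 0.79 SE). The single positive member was *Enpep*, the aminopeptidase recognised by the cortical antibody Ly51 (log2 fold change 0.29 ± 0.72 SE).

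Cortical values apart from the mesenchyme-rich libraries rest on the lone PLET1- replicate 3, and the part of mesenchymal transcripts was not tested. In replicate 3, where both populations had few mesenchymal transcripts, PLET1+ against PLET1- was 386 against 914 CPM for *Psmb11*, 138 against 272 CPM for *Ly75* and 2594 against 4663 CPM for *Krt18*. With PLET1- replicates 1 and 2 left out, the median of the list was -0.67, in a fit that takes the lone PLET1- library to vary like the other groups.

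The proximal promoters are shown because FOXN1 binds a short core, GACGC, and the cortical genes lay on one side. RefSeq gives 300-base windows around gene starts for 13 of the 17 cortical and 17 of the 24 mTEC genes. In the 250 bases before the start, GACGC or its reverse complement GCGTC occurred at 4 of 13 cortical genes (30.8%), 6 of 17 mTEC genes (35.3%) and 24.8% of all 27025 genes with a window. The cortical genes with a match were *Psmb11*, *Cxcl12*, *Ccl25* and *Enpep*. Matches are descriptions of these letters only. The windows of *Psmb11*, *Ly75*, *Krt5* and *Plet1* are printed 5′ to 3′ on the strand of the gene (RefSeq, GRCm38.p6), with matches in capitals.
Psmb11, chr14:54625060-54625309, plus strand: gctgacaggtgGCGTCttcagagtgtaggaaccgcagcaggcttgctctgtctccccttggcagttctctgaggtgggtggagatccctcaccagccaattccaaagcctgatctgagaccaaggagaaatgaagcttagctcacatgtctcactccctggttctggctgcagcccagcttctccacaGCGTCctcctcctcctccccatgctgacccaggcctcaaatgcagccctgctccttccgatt
Ly75, chr2:60383274-60383523, minus strand: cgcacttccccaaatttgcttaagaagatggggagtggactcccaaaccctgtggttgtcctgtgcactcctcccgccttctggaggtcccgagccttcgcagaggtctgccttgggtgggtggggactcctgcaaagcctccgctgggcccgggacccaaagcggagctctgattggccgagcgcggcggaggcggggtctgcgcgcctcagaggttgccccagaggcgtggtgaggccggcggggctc
Krt5, chr15:101712906-101713155, minus strand: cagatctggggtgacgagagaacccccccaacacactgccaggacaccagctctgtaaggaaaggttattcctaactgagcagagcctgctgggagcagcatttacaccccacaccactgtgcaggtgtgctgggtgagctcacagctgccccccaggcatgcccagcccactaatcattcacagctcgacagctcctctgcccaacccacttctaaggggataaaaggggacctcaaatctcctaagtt
Plet1, chr9:50494275-50494524, plus strand: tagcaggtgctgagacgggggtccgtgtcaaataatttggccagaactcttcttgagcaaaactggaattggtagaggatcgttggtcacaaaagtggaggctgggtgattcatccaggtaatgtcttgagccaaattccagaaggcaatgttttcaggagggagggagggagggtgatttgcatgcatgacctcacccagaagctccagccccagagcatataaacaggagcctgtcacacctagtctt
*Psmb11* held 2 matches and the other 3 windows held 0.

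MHC class II genes had negative fold changes throughout, most within their spread. All 10 tested of 11 MHC class II genes had a negative fold change (median -0.74, lowest -2.38, highest -0.13). In 3 of 3 pairs 7 were lower, 1 was wholly lower and none passed, beside 13% and 4.66% of all genes lower in these 2 ways. *H2-Eb1*, a class II β chain, was the gene wholly lower, at 290.2, 297 and 161 CPM in PLET1+ and 484, 411 and 298 CPM in PLET1- libraries. *H2-Ab1* was at 3508, 1665 and 1308 against 4801, 2228 and 2033 CPM, and *Cd74*, the invariant chain that escorts class II molecules, at 3401, 1259.9 and 999 against 4793, 2635 and 2114 CPM. Replicate 1 was highest in both populations for these last genes, so pairs separated where groups overlapped. *Ciita*, the class II transactivator, was at 8.11, 11 and 4.06 CPM in PLET1+ and 20.8, 25.3 and 10.4 CPM in PLET1- cells (log2 fold change -1.29 ± 1.07 SE).

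Among 12 MHC class I genes, all tested, 9 had a negative fold change and 2 were wholly lower, *Psmb10* and *Psmb9*, which encode subunits of the immunoproteasome. In 3 of 3 pairs 4 of the 12 were lower and 1 higher, beside 13% and 14.4% of all genes. Of all genes, 4.66% were wholly lower. *Psmb10* (chr8:105935735-105938444) was at 351, 273 and 205 CPM in PLET1+ and 617, 506 and 471 CPM in PLET1- replicates 1, 2 and 3. Its mean was 1.92 times as high in PLET1- cells (log2 fold change -0.96 ± 0.28 SE, unadjusted p = 0.00292), the smallest p of any protein-coding gene that was wholly lower in PLET1+. *Psmb9* was at 104, 106 and 84.8 against 243, 177 and 189.9 CPM. The third immunoproteasome subunit, *Psmb8*, overlapped between populations, at 13.5, 4.98 and 1.8 against 4.8, 4.69 and 7.51 CPM (log2 fold change 0.13 ± 1.58 SE). *B2m*, the class I light chain, was at 675, 816 and 515 against 1112, 780.1 and 694 CPM, *Pdia3* at 1874, 1280.0 and 1593 against 2019.5, 1311 and 1665 CPM, and the class I transactivator *Nlrc5* at 0, 3.18 and 0.688 against 1.17, 0.472 and 0 CPM. The class I median was -0.32. The constitutive catalytic subunits, looked at after these values were seen, lay together in both populations. *Psmb5* was at 253, 265 and 272 CPM in PLET1+ and 221, 272 and 277 CPM in PLET1- libraries (log2 fold change 0.04 ± 0.40 SE), *Psmb6* at 0.06 ± 0.40 and *Psmb7* at 0.13 ± 0.25 on the same log2 scale.

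**Figure D2:**
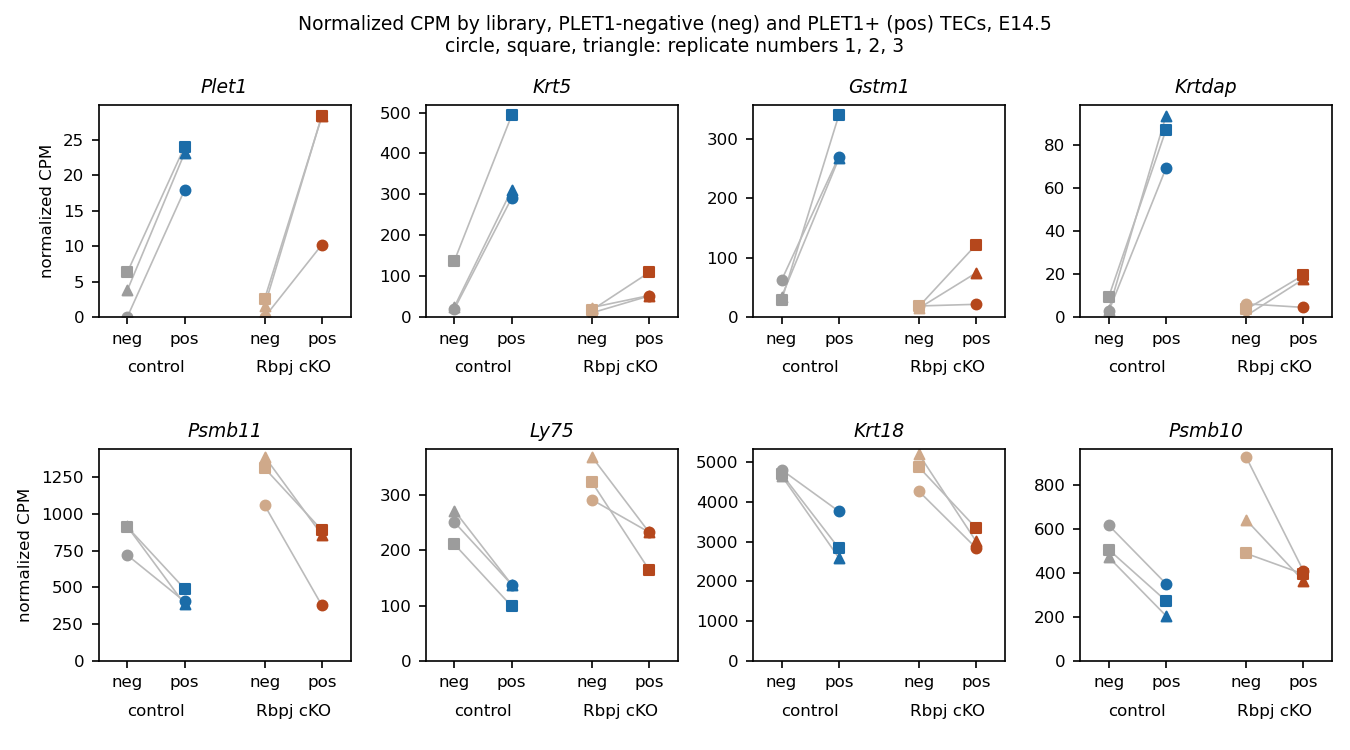
Normalized CPM (linear axes from 0) of 8 genes in PLET1-negative (neg) and PLET1+ (pos) TECs of E14.5 controls and *Rbpj* cKO, with lines joining libraries of the same number. *Plet1*, *Krt5*, *Gstm1* and *Krtdap* lie higher in all control PLET1+ libraries, for instance *Krtdap* at 69.1, 86.9 and 93.5 against 2.78, 9.44 and 3.46 CPM, and *Psmb11*, *Ly75*, *Krt18* and *Psmb10* lower.

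Medullary and basal keratin genes lay on the higher side in PLET1+ libraries. Of 24 mTEC lineage genes, 23 were tested, 19 had a positive fold change, 7 were wholly higher and 0 wholly lower, beside 5.03% and 4.66% of all genes, and none passed in edgeR. The median log2 fold change was 1.26 and single members ranged from -4.07 to 8.62, many of them at a few CPM. Within same-numbered pairs, the median difference of log2 (CPM + 1) over the list was 0.11, 0.85 and 1.18 in pairs 1, 2 and 3, so pair 1 differed least. *Krt5* (chr15:101707070-101712891), the basal keratin of mTECs, led the list. It was at 291, 493 and 311 CPM in PLET1+ and 20.3, 138 and 25.4 CPM in PLET1- replicates 1, 2 and 3. PLET1- replicate 2 was the highest of its group yet stayed below every PLET1+ library. The mean was 5.96 times as high in PLET1+ cells (log2 fold change 2.63 ± 0.65 SE, unadjusted p = 0.000749 and adjusted p = 1 in edgeR, with adjusted p from 1.81e-07 to 1 over 22 alternatives, the lowest with DESeq2 and the replicate number as a block). *Krt14*, its partner, was at 51.2, 83.3 and 45.5 against 29.6, 25.4 and 19.7 CPM, wholly higher (log2 fold change 1.26 ± 1.32 SE). That wide SE draws on the spread within all groups of the model, not only within these libraries. *Krt17* overlapped, at 151, 740.5 and 308 CPM in PLET1+ and 141, 321 and 135 CPM in PLET1- cells.

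The other wholly higher members were *Cldn4*, a claudin of mTEC progenitors (48, 76.9 and 166 CPM against 10.8, 19.9 and 35 CPM), the ETS factors *Spib* (11.3, 17.6 and 8.48 against 6.61, 3.57 and 0 CPM) and *Ehf* (5.49, 10.5 and 4.13 against 0.0255, 1.79 and 0.038 CPM), the hormone gene *Fgf21* (22.2, 14.4 and 11.6 against 0.536, 7.01 and 10.9 CPM) and the costimulatory ligand *Cd80*, which was low, at 0.0364, 0.872 and 1.42 CPM against 0 counts. *Cldn3* was at 1.56, 3.8 and 6.58 CPM in PLET1+ and 0.204, 0.876 and 1.73 CPM in PLET1- libraries and overlapped. *Ivl*, a protein of cornifying epithelium, was at 0, 1.25 and 0.831 against 0, 0 and 0.19 CPM. Genes of mature mTECs were low in both populations. *Aire* was at 3.38, 3.51 and 0 CPM in PLET1+ and 4.37, 1.55 and 0 CPM in PLET1- libraries, and *Fezf2*, the other regulator of tissue antigens, at 0, 1.78 and 0.902 against 2.96, 3.51 and 0 CPM. Receptors and transducers of the NF-κB pathway overlapped between populations. *Tnfrsf11a* was at 15.1, 8.85 and 6.98 against 10.1, 14 and 1.46 CPM, *Cd40* at 26.5, 51.6 and 19.3 against 30.5, 34.2 and 13.6 CPM, and *Relb* at 12.8, 21.2 and 19.9 against 18.7, 31 and 20.3 CPM.

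In replicate 3 alone, *Krt5* was at 311 CPM in PLET1+ and 25.4 CPM in PLET1- cells and *Krt14* at 45.5 and 19.7 CPM. Without PLET1- replicates 1 and 2 the mTEC median was 1.66.

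**Figure D3:**
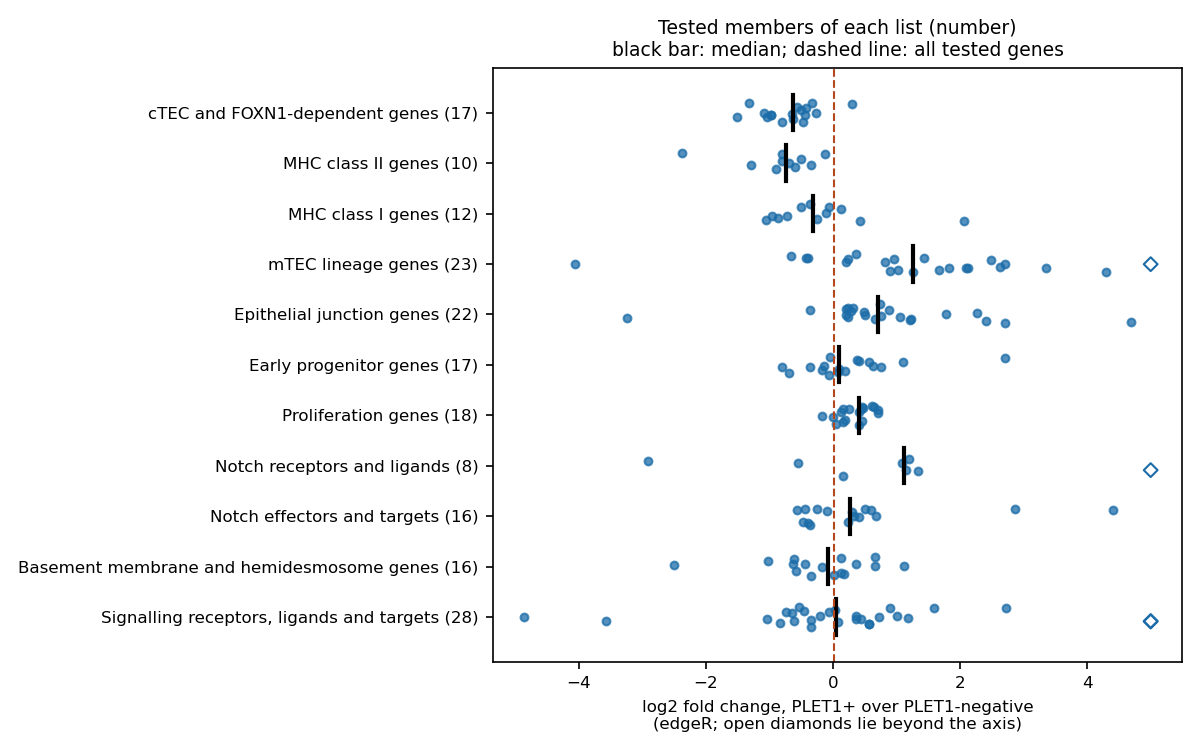
Log2 fold change (PLET1+ over PLET1-negative controls, edgeR) of each tested member of 11 gene lists, with list medians as black bars the median of all genes as a dashed line and members beyond the axis as open diamonds. The cTEC points lie left of 0 in 16 of 17 cases (median -0.63) and the mTEC points right of it in 19 of 23 (median 1.26).

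Per exon length, *Krt8* and *Krt18* far exceeded the basal keratins in both populations. In RPKM (normalized CPM divided by the kilobases of exon length that the table gives), *Krt18* was at 2690.2, 2024 and 1853 RPKM in PLET1+ and 3436, 3362 and 3331 RPKM in PLET1- libraries, while *Krt5* was at 133, 225 and 142 against 9.25, 63.1 and 11.6 RPKM and *Krt14* at 29.1, 47.4 and 25.9 against 16.8, 14.4 and 11.2 RPKM. The order *Krt18*, *Krt8*, *Krt17*, *Krt5* held for the mean RPKM in both populations, with *Krt17* and *Krt5* overlapping in PLET1+ libraries. The simple keratin *Krt19* ran opposite to *Krt8* and *Krt18*, at 17.7, 49.1 and 30.1 RPKM in PLET1+ and 1.27, 21.7 and 5.88 RPKM in PLET1- libraries (log2 fold change 1.82 ± 1.37 SE), higher in 3 of 3 pairs although the groups overlapped. *Krt15*, a keratin of basal progenitors chosen after its values were seen, was at 9.1, 4.02 and 6.54 RPKM in PLET1+ and 0, 0 and 1.08 RPKM in PLET1- libraries. Of 53 protein-coding keratins (a family examined after values were seen), 24 were tested, 14 were on the positive and 10 on the negative side. Wholly higher were 5 and wholly lower 3, beside 5.03% and 4.66% of all genes. *Krt6a* was at 3.64, 3.45 and 6.2 CPM in PLET1+ and at 0 counts in every PLET1- library.

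**Figure D4:**
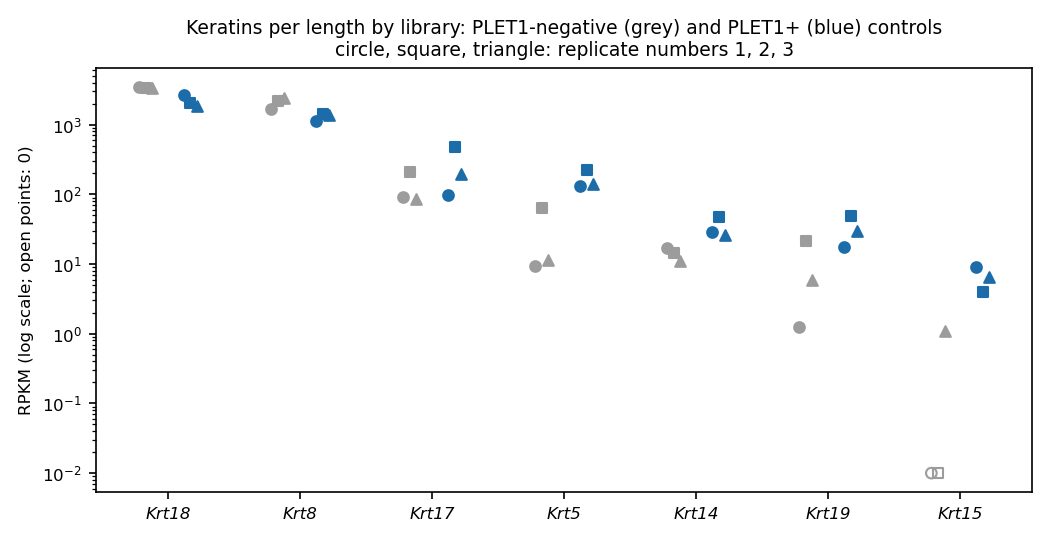
RPKM (log scale) of 7 keratins in the 6 control libraries, PLET1- in grey and PLET1+ in blue, with a count of 0 drawn as an open point at the bottom. *Krt18* and *Krt8* are the highest of the 7 in every library and lower in PLET1+, and *Krt5* lies at 133, 225 and 142 RPKM in PLET1+ against 9.25, 63.1 and 11.6 RPKM in PLET1-.

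Epithelial junction genes were on the higher side in PLET1+ cells. Of 23, 22 were tested, 20 had a positive fold change and 14 were higher in 3 of 3 pairs, beside 14.4% of all genes. Wholly higher were 7 and wholly lower 1, beside 5.03% and 4.66% of all genes. An unadjusted p under 0.05 was found for 4 (2.87% of all genes), none passed, and the median was 0.70. *Pkp1* (chr1:135871395-135919207), a desmosomal plaque protein of stratified epithelia, was at 30.8, 33.7 and 29.9 CPM in PLET1+ and 2.12, 14.4 and 4.07 CPM in PLET1- replicates 1, 2 and 3 (log2 fold change 2.26 ± 0.79 SE, unadjusted p = 0.0106). The 3 PLET1+ values were close together and the PLET1- values spread. *Dsg2*, a desmosomal cadherin, was at 163, 98.5 and 80.6 against 85.5, 61.6 and 52.8 CPM, higher in each pair although the groups overlapped. Other wholly higher genes included *Epcam*, *Ocln*, *Cldn7*, *Cldn8* and *Tjp3*. Occludin RNA was at 43.8, 69.7 and 65.6 CPM in PLET1+ and 28.4, 38 and 16.3 CPM in PLET1- libraries, and *Cldn7* at 7.53, 39.6 and 46.4 against 5.59, 7.52 and 4.96 CPM. The wholly lower gene was *Cldn1*, at 0, 2.29 and 0.926 CPM in PLET1+ and 15.3, 3.84 and 11.2 CPM in PLET1- cells. The desmosomal cadherin *Dsc2* overlapped between populations, at 337, 580.4 and 605 against 274, 426 and 573 CPM.

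Early progenitor genes had no common direction. Of 18, 17 were tested, 10 had a positive and 7 a negative fold change, and the median was 0.10. Wholly higher were 2 and wholly lower 2, beside 5.03% and 4.66% of all genes. Of the wholly higher genes, *Plet1* encodes the protein used for the sort, so it is no separate result. The other was *Sox9*, a transcription factor of many epithelial progenitors, at 129, 102 and 138 CPM in PLET1+ and 64.2, 64.1 and 49.8 CPM in PLET1- libraries (log2 fold change 1.10 ± 0.41 SE, unadjusted p = 0.0144). *Kitl*, the stem cell factor that TECs supply to thymocytes, was wholly lower, at 145, 129 and 150.4 CPM in PLET1+ and 202, 237 and 253 CPM in PLET1- cells, and so was the pouch factor *Pax1*, at 204, 257 and 254 against 339, 259 and 325 CPM. *Ccn1* was at 206, 720.1 and 438 against 95.1, 223 and 503 CPM and ran opposite in replicate 3. The pouch regulators *Pax9*, *Eya1* and *Isl1* had fold changes of 0.08, 0.18 and -0.06 on the log2 scale, each smaller than its SE.

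Most Notch receptors and ligands had positive fold changes in the controls, and Notch targets lay on both sides. Of 8 receptors and ligands, all tested, 6 had a positive fold change and 2 were wholly higher, beside 5.03% of all genes. None passed, single members ranged from -2.91 to 5.05 and the median was 1.11 (1.04 with *Dll3* at its bound). It was 0.42 with the 6 control libraries alone and 0.37 without both libraries numbered 1, and in the cKO it was -0.53, with 3 members higher and 5 lower. *Notch1* was at 18.4, 16.7 and 18.2 CPM in PLET1+ and 2.12, 15.9 and 5.78 CPM in PLET1- replicates 1, 2 and 3, and *Notch3* at 8.84, 9.01 and 8.26 against 2.27, 6.94 and 3 CPM. For both, PLET1- replicate 2 came close to the PLET1+ libraries. *Jag1*, a Notch ligand, was at 313, 136 and 221 CPM in PLET1+ and 137, 54.5 and 80.2 CPM in PLET1- cells and was higher in 3 of 3 pairs (log2 fold change 1.33 ± 0.70 SE, unadjusted p = 0.0731). *Notch2* was at 393, 111 and 108 against 352, 135 and 87.3 CPM, with replicate 1 far above the others in both populations. *Dll3* had counts in 1 PLET1+ library, at 0, 0.472 and 0 CPM, and none in PLET1-.

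Of 18 Notch effectors and targets, 16 were tested, 9 had a positive and 7 a negative fold change. Wholly higher was 1 and wholly lower 1, near the 5.03% and 4.66% of all genes. The median was 0.26, beside -0.42 in the cKO with 4 higher and 12 lower. The target repressor *Hey1* was wholly higher, at 210.4, 206 and 178 CPM in PLET1+ and 162, 154 and 169 CPM in PLET1- libraries, and *Hes6* wholly lower, at 599, 510.1 and 482 against 774, 776 and 825 CPM. *Hey2* had the smallest unadjusted p, 0.0141, at low levels of 7.35, 6.52 and 0.38 CPM in PLET1+ and 0, 0.607 and 0.019 CPM in PLET1- cells. *Hes1*, the best known target, was at 39.9, 33.3 and 49.6 CPM in PLET1+ and 46.2, 51.4 and 62.5 CPM in PLET1- libraries, *Heyl* at 11, 29.8 and 25.9 against 18, 41.2 and 33.6 CPM and the coactivator *Maml2* at 109, 59.4 and 79.6 against 63.1, 28.4 and 60.7 CPM. *Rbpj* itself overlapped between populations (log2 fold change 0.50 ± 1.03 SE).

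Proliferation genes leaned to PLET1+ by a small margin. Of 18, all tested, 17 had a positive fold change and 10 were higher in 3 of 3 pairs, beside 14.4% of all genes. Wholly higher were 2 (5.03% of all genes), 1 had an unadjusted p under 0.05 (2.87% of all genes) and none passed. The median was 0.40 and the highest 0.71. *Top2a*, the topoisomerase of dividing cells, was at 422, 359 and 386 CPM in PLET1+ and 239.8, 279 and 248 CPM in PLET1- libraries (log2 fold change 0.61 ± 0.28 SE), and *Aurkb*, a mitotic kinase, at 135, 144 and 137 against 77.3, 83.6 and 94.9 CPM. *Rrm2*, which makes deoxynucleotides, was at 315, 258 and 350.1 against 135, 142 and 309.7 CPM, *Ube2c* at 362, 455 and 340.2 against 348, 299 and 208 CPM and *Mcm2* at 68.5, 125 and 151 against 55.9, 63.5 and 103 CPM. Mitotic cyclins did not separate, with *Ccnb1* at 554, 438 and 443 against 451, 506 and 333 CPM and *Ccnb2* at 443, 344 and 427 against 637, 419 and 345 CPM. In replicate 3 *Rrm2* was at 350.1 against 309.7 CPM, and without PLET1- replicates 1 and 2 the list's median was 0.15.

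Basement membrane and hemidesmosome genes had no common direction. Of 16, all tested, 8 had a positive and 8 a negative fold change (median -0.08). Wholly higher were 2 and wholly lower 1, beside 5.03% and 4.66% of all genes. *Itgb4*, the hemidesmosomal integrin chain, was wholly higher by a narrow gap, at 8.84, 13.5 and 11.6 CPM in PLET1+ and 8.73, 7.92 and 4.77 CPM in PLET1- libraries. *Dst*, which anchors keratin at hemidesmosomes, was wholly lower, at 23.6, 27.7 and 28 against 60.4, 52.9 and 47.4 CPM. *Itgb1* was at 151, 128 and 127 against 103, 128 and 128 CPM, *Col4a1* at 82.2, 55.7 and 43.1 against 94.9, 67.2 and 43.6 CPM, and *Nid1*, a basement membrane linker, at 0, 3.92 and 0 against 3.68, 16.2 and 0.038 CPM, highest in PLET1- replicate 2.

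Of 31 signalling receptors, ligands and targets, 28 were tested, 15 had a positive and 13 a negative fold change, and the median was 0.05. Wholly higher was 1 and wholly lower 1, near the 5.03% and 4.66% of all genes. *Ankrd1*, a target of YAP, was at 4.33, 0.854 and 1.21 CPM in PLET1+ and at 0 counts in PLET1- libraries, which makes it at least 27.2-fold higher against a floor of 3 counts in each PLET1- library. *Dkk3* was wholly lower, at 0.655, 0.182 and 1.97 CPM in PLET1+ and 12.8, 8.39 and 2.11 CPM in PLET1- cells. *Erbb3* was at 4.29, 10.2 and 8.36 against 2.78, 4.96 and 0 CPM, *Wnt5b* at 0.218, 0.454 and 0 against 0, 0 and 0 CPM, and the BMP targets *Id2* and *Id3* at 146, 137 and 160.3 against 213, 149 and 152 and 116, 187 and 136 against 151, 189 and 219.8 CPM.

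The next genes were named for having the smallest p among protein-coding genes wholly higher in PLET1+, and none passed in edgeR. *Gstm1* (chr3:108012255-108017973), a glutathione S-transferase that conjugates electrophiles, had the smallest unadjusted p, 0.000205, at 269.8, 339.9 and 267 CPM in PLET1+ and 62.3, 28.2 and 34.2 CPM in PLET1- replicates 1, 2 and 3. Its mean was 7.02 times as high in PLET1+ cells (log2 fold change 2.82 ± 0.61 SE). The neighbouring *Gstm2* was at 389, 272 and 236 against 132, 95.8 and 96.5 CPM. The 7 mu-class transferases were examined after these values were seen, and near-identical members can share reads. Of these, 6 were on the positive side and 4 wholly higher, beside 5.03% of all genes. *Gstm5* was at 144, 123 and 136 CPM in PLET1+ and 190.4, 119 and 138 CPM in PLET1- libraries. *Mt1*, a metallothionein that binds zinc, was at 46.1, 49.4 and 65.4 against 10.3, 16.6 and 10.7 CPM, and *Mt2* at 5.46, 3.74 and 2.99 against 0.97, 0.0337 and 0.057 CPM.

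*Cd24a*, a glycoprotein of immature epithelial and blood cells, was at 267, 318 and 373 CPM in PLET1+ and 82, 171 and 192 CPM in PLET1- libraries (log2 fold change 1.13 ± 0.28 SE). *Krtdap*, a keratinocyte differentiation protein, was at 69.1, 86.9 and 93.5 against 2.78, 9.44 and 3.46 CPM, a mean 15.9 times as high in PLET1+. *Dsg3*, a desmosomal cadherin of basal layers, was at 11.2, 7.7 and 15.4 CPM in PLET1+ and at 0 counts in all PLET1- libraries, at least 146-fold higher. *Bpifa1*, a secreted protein of airway and oral epithelium, was at 434, 97.3 and 82.3 CPM in PLET1+ replicates 1, 2 and 3 and at 0 counts in all PLET1- libraries, at least 2615-fold higher against the same floor. *Depp1* was at 5.75, 41.8 and 87.7 CPM against 0 counts and *Art4* at 11.6, 4.21 and 0.499 CPM against 0 counts. *Nup62cl* was at 133, 125 and 117 against 39.9, 33.3 and 44.3 CPM and *Cmtm8* at 44, 52.5 and 33.6 against 9.3, 17.6 and 10.4 CPM.

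Among the 12 wholly lower genes with the smallest p, beside *Psmb10* and *Ly75*, the abundant ones were *Pds5b*, a cohesin regulator, at 172, 124 and 107 CPM in PLET1+ and 179, 411 and 351 CPM in PLET1- libraries, *Rab11fip4*, an effector of recycling endosomes, at 55.6, 75.3 and 77.8 against 112, 120.4 and 141 CPM, and *Klhl20*, a ubiquitin ligase adaptor, at 8, 11.6 and 16.5 against 21.8, 28.2 and 51 CPM. *Hspa2* was at 5.57, 6.41 and 3.13 against 23.7, 13 and 12.3 CPM. The others were near 0 in PLET1+ cells. *Zeb1*, a repressor of epithelial genes active in mesenchyme, was at 0.0364, 0 and 0 CPM in PLET1+ and 2.86, 4.92 and 1.71 CPM in PLET1- replicates, and *Tm4sf1* at 0 counts in PLET1+ and 6.13, 36.2 and 3.06 CPM in PLET1-. *Gdf10*, a BMP-family ligand, was at 0 counts in PLET1+ and 5.39, 11.1 and 0.019 CPM in PLET1-, high in the mesenchyme-rich replicates 1 and 2. *Mrc1* was at 3.98, 0.742 and 3.86 CPM in PLET1-, *Fndc5* at 0.511, 2.19 and 0.912 CPM and *Slc24a4* at 0.0255, 1.58 and 1.06 CPM, each at or below 0.475 CPM in PLET1+ libraries.

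The same contrast in the *Rbpj* cKO libraries, which share no library with the controls, gave values to set beside these. Other cell types were present there too, with mesenchymal markers summing to 37.7, 62.1 and 22.7 CPM in cKO PLET1+ and 634, 138 and 47.5 CPM in cKO PLET1- replicates, and parathyroid and neuroendocrine markers to 6.68, 29.6 and 19.3 and to 39.3, 279.8 and 368 CPM, and their part in the values was not tested. In the cKO edgeR called 0 of 19140 genes (0%), with 442 (2.31%) at an unadjusted p under 0.05 (1.52% higher and 0.789% lower in PLET1+), 169 calls by DESeq2 and 2 by limma-voom. The interaction of PLET1 status with genotype called 0 genes (0%) in edgeR, with 502 (2.62%) at an unadjusted p under 0.05 (1.3% more and 1.33% less positive in controls), 116 calls by DESeq2 and 0 by limma-voom. Of the 17 cortical genes, 12 were lower in PLET1+ in all 6 same-numbered pairs of both genotypes, against 630 of 19140 genes (3.29%). *Psmb11* was at 377, 889 and 857 CPM in cKO PLET1+ and 1058, 1311 and 1389.8 CPM in cKO PLET1- replicates, and *Krt18* at 2839, 3339.6 and 3005 against 4268, 4877 and 5201 CPM. The median of the list was -0.65 in the cKO and -0.63 in the controls.

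Of the mTEC genes, 3 of 23 were higher in all 6 pairs (*Krt5*, *Fgf21* and *Ehf*), against 3.29% of all genes, and the median was 0.28 in the cKO beside 1.26 in the controls. *Krt5* was at 51.6, 109 and 52.6 CPM in cKO PLET1+ and 10.3, 17.1 and 23.4 CPM in cKO PLET1- libraries, with a log2 fold change of 1.99 ± 0.64 SE beside 2.63 ± 0.65 SE in the controls. The interaction had an unadjusted p of 0.472 and an adjusted p of 1 in edgeR's quasi-likelihood test. *Bpifa1* was again at 0 counts in the cKO PLET1- libraries, with 6.93, 1064 and 616 CPM in cKO PLET1+. Of the junction genes 5 of 22, and of the proliferation genes 5 of 18, were higher in all 6 pairs. Of 8 Notch receptors and ligands, 1 was higher and 1 lower in all 6 pairs. Of 16 Notch effectors and targets, 0 were higher and 3 lower, beside 3.29% of all genes in each direction. *Dsg3* was at 0, 0 and 0.0474 CPM in cKO PLET1+ libraries and *Krtdap* at 4.49, 19.5 and 17.6 against 6.15, 3.57 and 0.607 CPM in cKO PLET1+ and PLET1- libraries. The interaction for *Krtdap* had an unadjusted p of 0.244 in edgeR's quasi-likelihood test, and *Dsg3*, at 0 counts in all PLET1- libraries of both genotypes, had no usable interaction estimate in that fit.

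**Figure D5:**
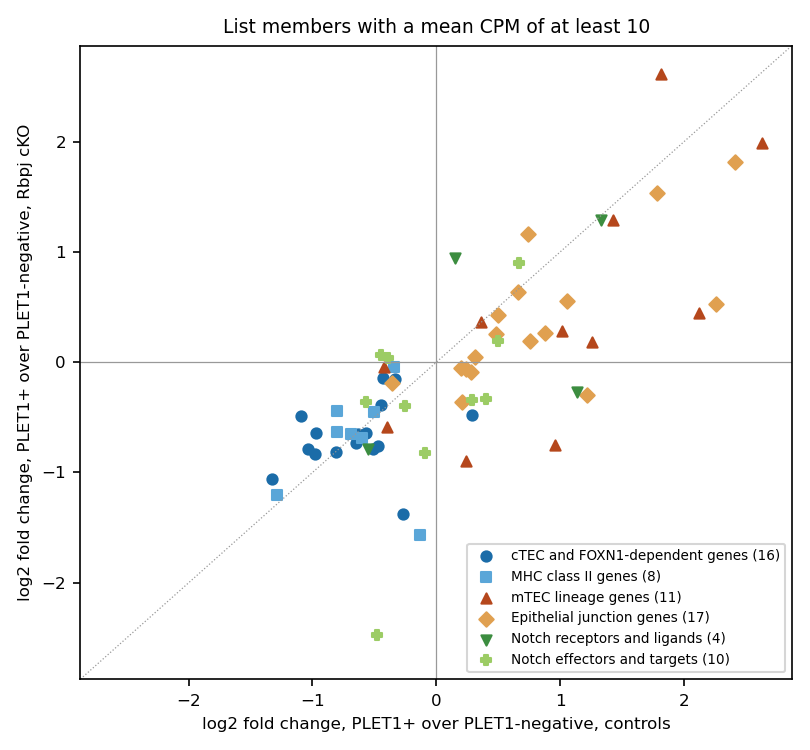
Log2 fold change of PLET1+ over PLET1-negative in controls (x axis) and in *Rbpj* cKO (y axis) for members of 6 lists with a mean of at least 10 CPM in the control libraries, each point a gene and the dotted line equality. The cTEC members lie on the same side of 0 in both genotypes in 15 of 16 cases, the MHC class II members in 8 of 8, the mTEC members in 9 of 11 and the junction members in 12 of 17.

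At E12.5, 2 days earlier, PLET1+ control TECs came from other batches, so age and batch cannot be told apart and the levels are only set side by side. Parathyroid and neuroendocrine markers summed to 1474, 1606 and 9282 CPM in the 3 E12.5 libraries, and their part in these levels was not tested. The mean of *Psmb11* was 97.8 ± 31.1 CPM at E12.5 against 427 ± 55.9 CPM in E14.5 PLET1+ and 848 ± 112 CPM in E14.5 PLET1- cells (SD, n = 3 in each group), and *Krt18* was at 2029.7 ± 459, 3065 ± 619 and 4727 ± 75.5 CPM. For *Plet1* the means were 40.2 ± 21.6, 21.7 ± 3.34 and 3.36 ± 3.17 CPM, and for *Cd24a* 766 ± 434, 319.7 ± 53.1 and 148 ± 58.2 CPM. For these 4 genes the mean of E14.5 PLET1+ cells lay between those of E12.5 PLET1+ and E14.5 PLET1- cells, with SDs that overlap for E12.5 and E14.5 PLET1+ cells in *Plet1*, *Krt18* and *Cd24a*. Their single PLET1+ libraries did not overlap between the ages. The nearest E12.5 and E14.5 values were 26.8 and 24 CPM for *Plet1*, 2558 and 2594 for *Krt18* and 453 and 373 for *Cd24a*. *Krt5* did not follow that order, at 62.2 ± 31.8 CPM at E12.5, 365 ± 112 CPM in E14.5 PLET1+ and 61.3 ± 66.6 CPM in E14.5 PLET1- cells, and neither did *Gstm1*, at 44.6 ± 26.3, 292 ± 41.4 and 41.6 ± 18.2 CPM.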

How the data were processed

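Each library held RNA of 100 sorted cells, sequenced as paired reads of 75 bases without molecular identifiers. Per the labels and file headers, the authors trimmed reads (Trimmomatic 0.32), aligned them to GRCm38 with STAR 2.5.1a and counted read pairs per GENCODE vM12 gene with featureCounts (1.5.1 in the labels, 1.5.0-p3 in the file header). The deposited values are raw counts without use of strand and without multi-mapping reads, so overlapping, antisense and near-identical genes are uncertain. The submitters' processing notes also name bcl2fastq.

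From these counts, edgeR 4.0.16 (R 4.3.3) was run on the 23 libraries in 1 model of 7 group means plus 2 terms for batch, with TMM factors, filterByExpr (19140 of 50123 genes kept) and the quasi-likelihood test, with Benjamini-Hochberg adjustment per comparison and calls at an adjusted p of at most 0.05. The group means include the E12.5 cKO and NICD libraries, so the estimated spread draws on these too. Each SE given with a log2 fold change is the size of that fold change over the square root of its quasi-likelihood F statistic. It thus reflects the spread across the model, not only between the libraries compared. With the 12 libraries of the E14.5 *Rbpj* cross alone, edgeR also called 0 of 17666 genes. The 3 comparisons were PLET1+ against PLET1- in controls, the same in cKO, and their interaction. CPM use TMM factors, and 3 counts came to 0.0783 CPM on average over the PLET1- libraries, the floor for folds against 0 counts. The floor covers counting error only, since reads without molecular identifiers are not independent molecules. Where nothing states separate embryos, p-values measure the spread between these samples, which may be technical.

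Genes named were, per list, up to 4 tested members with the smallest p and the 2 with the highest mean CPM, and, over all protein-coding genes, the 12 per direction with the smallest p among those whose libraries did not overlap. Other members, including those wholly higher or lower and the pouch regulators, and the families and promoters shown were chosen after values were seen. A few members that counts of the lists include are not reported here by name. The members of the comparison and all gene lists were chosen with earlier results of these data known. Names came from GENCODE vM21 gene identifiers, which matched 49412 genes (98.6%). A list median is given for lists with at least 5 tested members. Sex and housekeeping lists served as checks, and housekeeping genes as a scaling alternative (median log2 fold change 0.05 over 3 genes).

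Same-numbered libraries of both populations deviated together from their group means, at r = 0.31, 0.20 and 0.17 over genes for numbers 1, 2 and 3 against -0.24 to 0.09 for other numbers. Deviations from a group mean cancel within a population, so the lower values for other numbers follow in part from the same-numbered ones. Batch and the mitochondrial share of replicate 1 also went with the number, and a shared embryo cannot be told apart from these. The numbers were taken to pair the libraries. The main model holds batch terms and no replicate block, so its SEs and p-values do not use this pairing. The replicate block is among the alternatives. Alternatives were DESeq2 1.42.0, limma-voom (limma 3.58.1), DESeq2 size factors in edgeR, housekeeping scaling, no filter, a stricter filter, batch left out of the model, a replicate block, fewer libraries in the fit, each library left out and the average over control and cKO. Added after seeing the data were DESeq2 and limma-voom with the block, the fit without both libraries numbered 1 and the fit without PLET1- replicates 1 and 2. The steps were tested on simulated counts. Figures were drawn with matplotlib 3.10.9 in Python 3.11.15.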

Additional observations from a re-analysis of the deposited data

Results flagged for a closer look

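*Notch3* was picked out because the contrast ran in opposite directions in the 2 genotypes. Its log2 fold change, PLET1+ over PLET1-, was 1.08 in controls and -2.58 in cKO, with all 3 control pairs higher and all 3 cKO pairs lower in PLET1+ cells. The cKO levels were low, at 0, 0.418 and 0.498 CPM in PLET1+ and 0.168, 2.95 and 2.32 CPM in PLET1- replicates. The difference of 3.66 between the genotypes in log2 fold change had an unadjusted p of 0.0352 in edgeR's quasi-likelihood test and an adjusted p of 1, so it did not pass. *Hey2* and *Dkk3*, described above, had opposite fold changes in the 2 genotypes with smaller unadjusted p, but not in every pair, and neither passed (adjusted p = 1 in edgeR). The log2 fold change of *Hey2* was 4.40 in controls and -3.04 in cKO (interaction 7.44, unadjusted p = 0.0037) at low counts. *Dkk3* was lower in PLET1+ in 3 of 3 control pairs, while in cKO it was at 0, 2.68 and 3.82 CPM in PLET1+ and at 0 counts in every PLET1- library. Its interaction had an unadjusted p of 0.00442 in edgeR's quasi-likelihood test. Opposite fold changes were not particular to Notch genes. *Mrc1*, described above, was at -8.04 in controls and 5.54 in cKO, with an unadjusted interaction p of 0.00211 in the same test. *Art4* (0.00578), *Slc24a4* (0.00632), *Fndc5* (0.0113), *Wnt5b* (0.0315) and *Syp* (0.0336) also changed sign at low levels. None of these did so in every pair, and none passed.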

How the results depend on the processing

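Counts of calls depended on the tool more than on the libraries in the fit. In controls edgeR called 0 genes under every edgeR setting but no filter (16), while DESeq2 called 172 (103 with the replicate block), and limma-voom 1 (2 with the block). In cKO the counts were 169 and 65 for DESeq2 and 2 and 2 for limma-voom, and for the interaction 116 and 44 for DESeq2, each without and with the block. The replicate block left edgeR's count at 0, with 323 genes at an unadjusted p under 0.05, and the correlation of same-numbered libraries was 0.43 over genes with a mean of at least 10 CPM against 0.22 over all. With this block in edgeR, *Krt5* had a log2 fold change of 3.12 ± 0.54 SE (unadjusted p = 4.04e-05, adjusted p = 0.339). *Gstm2* was at 1.45 ± 0.23 (1.93e-05 and 0.339). *Gstm1*, at 2.89 ± 0.62, had a larger unadjusted p than in the main model (0.000351), and *Psmb11* was at -0.99 ± 0.38 (0.0203). Medians of the cTEC, mTEC, MHC class II and MHC class I lists moved by less than the spread between pairs under every alternative.

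Without both mesenchyme-rich PLET1- libraries, medians were 0.15 for proliferation, 0.17 for basement membrane, 0.48 for junction, 0.79 for Notch receptors, -0.07 for Notch effectors, 0.14 for signalling, -1.28 for mesenchymal and 3.29 for parathyroid genes. PLET1+ replicate 2, with 433 CPM of parathyroid and neuroendocrine markers, stayed in that fit. Leaving out only this library gave -7.16 for parathyroid genes. Averaged over control and cKO the medians were 0.31 for Notch receptors, -0.18 for Notch effectors, -0.37 for basement membrane, 0.08 for signalling and -3.62 for mesenchymal genes. Notch receptors were at 0.42 with the 6 control libraries, 0.76 without batch terms, 0.61 with the stricter filter and 0.37 without both libraries of number 1. Notch effectors were at 0.08 with DESeq2 and block, 0.09 and 0.03 with limma-voom with and without it, and 0.07 with the stricter filter. Signalling genes were near 0 throughout, at 0.03 with the 12 libraries of the cross, DESeq2, RLE factors and housekeeping scaling, 0.02 with limma-voom and the stricter filter, 0.01 and -0.05 with the 6 control libraries with and without the block, -0.04 with DESeq2 and block and without number 1, -0.05 with limma-voom and block, -0.06 without batch terms and -0.02 with the replicate block.

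With 1 library left out in turn, medians ranged from -0.00 to 0.27 for early progenitor genes, from 0.57 to 1.07 for Notch receptors, from -0.10 to 0.38 for Notch effectors, from -0.23 to 0.03 for basement membrane genes, from 0.45 to 0.78 for junction genes, from -0.12 to 0.09 for signalling genes and from -7.16 to -0.99 for parathyroid genes. The single-gene values that changed sign ranged from -0.25 to 0.08 for *Pdia3*, from -0.17 to 0.57 for *Notch2*, from -0.03 to 0.27 for *Ccnb1*, from -0.35 to 0.06 for *Ccnb2*, from -0.35 to 0.03 for *Col4a1* and from -7.16 to 4.29 for *Syp*.

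Of 1928 alternative values of the 89 named genes with a fold change, 1860 kept direction and side of the threshold, 38 passed it in 18 genes and 30 changed sign in 18 genes. Most settings used edgeR, which called no gene except without a filter, so the side of the threshold could hardly change there. Without both mesenchyme-rich libraries the log2 fold change was -0.49 for *Ccn1*, -0.13 for *Notch2*, -0.05 for *Rrm2*, 0.15 for *Ccnb2*, -0.07 for *Itgb1*, 0.13 for *Col4a1*, 0.22 for *Dcn*, 3.29 for *Chga*, 6.46 for *Pth* and 3.65 for *Syp*. Averaged over control and cKO it was -0.75 for *Notch3*, -0.02 for *Hey1*, -0.82 for *Wnt5b*, 2.93 for *Dkk3*, 0.00 for *Id2* and 2.80 for *Syp*. Without number 1 it was 0.01 for *Ccnb2* and -0.02 for *Itgb1*, and with limma-voom -0.23 for *Notch2*. The cause of these shifts was not tested. Each group holds 3 libraries, which limits every test here.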
